A study of Homo sapiens with 9 samples.

Results

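Interferon response genes were examined as a group of 37 named genes in maps of open chromatin from T47D, a luminal line of human breast cancer cells. All 37 were found among the 20033 protein-coding genes of RefSeq on GRCh38 chromosomes 1 to 22, X and Y. The assay, ATAC-seq, uses a transposase that cuts into open chromatin and leaves sequencing adapters there. Per the labels, 9 samples form 3 groups of 3: hypoxia with a hairpin against the transcription factor ZHX2 (shZHX2), hypoxia with a control hairpin (shCtrl), and normoxia with shCtrl. All cells of the study therefore carried a hairpin, delivered by lentivirus and kept under hygromycin or puromycin. Neither the oxygen level nor the length of the hypoxia is given in the sources used here. Nothing says that the replicates came from separate cultures.

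Each group came as 1 list of called regions with no values per sample, which leaves every difference without replicate error or p-value. A region was assigned to a member when a start or end of that gene was the nearest gene end to it, within 50 kb. It counted as a gene-end region when it lay within 1 kb of that position and as distal otherwise. By this rule the members held 75 of the 62774 regions of the hypoxia shZHX2 list, 88 of the 77448 of hypoxia shCtrl and 96 of the 90959 of normoxia. "Called" means past the authors' threshold in a list. A region counted as called in another list too when it overlapped one there by 1 bp or more. Read depth is unknown for each list, and a site open in fewer cells cannot be told apart from one that is less open in every cell.

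Interferons are secreted proteins that put cells into an antiviral state. Type I interferon binding at the cell surface activates Janus kinases, which phosphorylate STAT proteins; STAT2 then enters the nucleus with a STAT partner and IRF9. This complex binds the interferon-stimulated response element, ISRE, in the promoters of its target genes. Many of these promoters have low basal activity until a cell senses viral nucleic acid or receives interferon. Epithelial cells can run the whole pathway.

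The promoters of these genes carried the ISRE far more often than other promoters. RefSeq promoter sequences (GRCh38.p14), each reaching from 250 bases before the start of transcription to 50 bases after it, were matched to 28 of the 37 members; IFIT2, IFITM2, IRF2, IRF3, IRF7, MX2, OAS2, OASL and USP18 were not matched. The ISRE was searched on both strands as GAAANNGAA or TTCNNTTTC. It stood in 18 of the 28 (64.3%, Wilson 95% interval 45.8 to 79.3), against 7.06% of 15842 protein-coding promoters. The 37 matches reached up to 164 bases upstream of the start, and 35 began before it. In these matches 6 neighbouring pairs overlapped, and 4 matches overlapped a GAS motif (TTCNNNGAA). Intervals on shares cover counting error only.

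A set of 5 promoters is shown because they separate the sequence from the accessibility. ISG15, IFIT1 and DDX60 lay under a called region in every list, while IFI44L and IFI27 carried the same element and no region touched their promoter in any list. Capitals mark the ISRE matches, and each sequence runs 5′ to 3′ on the strand of the gene.
ISG15, chr1:1013247-1013546, plus strand: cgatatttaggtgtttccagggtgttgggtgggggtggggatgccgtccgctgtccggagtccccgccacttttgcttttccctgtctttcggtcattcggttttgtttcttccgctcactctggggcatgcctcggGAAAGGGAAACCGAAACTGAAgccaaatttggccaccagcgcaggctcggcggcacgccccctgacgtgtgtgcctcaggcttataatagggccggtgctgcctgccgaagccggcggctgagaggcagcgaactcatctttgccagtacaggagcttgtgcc
IFIT1, chr10:89392373-89392672, plus strand: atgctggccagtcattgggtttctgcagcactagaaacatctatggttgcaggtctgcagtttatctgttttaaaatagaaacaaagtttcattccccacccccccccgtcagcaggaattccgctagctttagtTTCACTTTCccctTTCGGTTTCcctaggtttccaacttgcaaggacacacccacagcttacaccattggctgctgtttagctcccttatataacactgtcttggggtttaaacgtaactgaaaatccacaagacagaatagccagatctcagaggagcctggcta
DDX60, chr4:168318703-168319002, minus strand: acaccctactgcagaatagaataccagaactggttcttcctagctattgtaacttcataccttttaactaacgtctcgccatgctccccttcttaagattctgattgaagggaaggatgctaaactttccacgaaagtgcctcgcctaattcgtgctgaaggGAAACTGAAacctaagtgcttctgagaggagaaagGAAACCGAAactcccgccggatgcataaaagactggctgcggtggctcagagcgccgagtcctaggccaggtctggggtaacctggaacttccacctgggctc
IFI44L, chr1:78620198-78620497, plus strand: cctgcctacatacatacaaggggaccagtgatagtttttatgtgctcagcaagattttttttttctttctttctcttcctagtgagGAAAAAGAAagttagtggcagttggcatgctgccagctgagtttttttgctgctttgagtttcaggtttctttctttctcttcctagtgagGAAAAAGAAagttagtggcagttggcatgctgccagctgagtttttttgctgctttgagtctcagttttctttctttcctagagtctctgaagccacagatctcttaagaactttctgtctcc
IFI27, chr14:94110486-94110785, plus strand: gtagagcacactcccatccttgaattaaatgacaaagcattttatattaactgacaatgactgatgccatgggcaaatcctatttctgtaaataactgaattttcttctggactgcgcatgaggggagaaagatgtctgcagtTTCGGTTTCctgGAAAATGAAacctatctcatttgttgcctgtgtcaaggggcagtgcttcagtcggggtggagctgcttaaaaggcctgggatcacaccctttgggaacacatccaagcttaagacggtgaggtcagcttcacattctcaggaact

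In ISG15 the 3 matches overlap in a row upstream of the start, and all 3 lay inside a region in each list. Over all members, 27 of the 37 matches lay inside a called region in hypoxia with shZHX2, 27 in hypoxia with shCtrl and 30 in normoxia. The matching count of matches over all promoters is not given here. Of the 18 member promoters with the ISRE, 13 were touched by a region in hypoxia with shCtrl. Over all promoters, 663 of the 1119 with the ISRE were touched in that list. Of 28 member promoters, 22 were touched by a region in hypoxia with shZHX2, 22 in hypoxia with shCtrl and 23 in normoxia. These shares were 78.6% with shZHX2 (60.5 to 89.8), against 65.4% of all promoters, 78.6% in hypoxia with shCtrl (60.5 to 89.8), against 66.4%, and 82.1% in normoxia (64.4 to 92.1), against 67.9%, and each interval holds the share of all promoters. The promoter of IFITM1, an antiviral membrane protein, was touched in normoxia only. Its region in both hypoxia lists was the same site with a later edge, inside the gene. That region began 292 bp past the gene start with shZHX2 and 282 bp past it with shCtrl. The promoters of IFI27, IFI44, IFI44L, IFITM3 and XAF1 were touched in none, and 4 of these 5, all but XAF1, held the ISRE. The GAS motif stood in 7 of 28 (interval 12.7 to 43.4%), against 6.97% of all promoters. The core hypoxia response motif, ACGTG or GCGTG on either strand, stood in 9 of 28 (32.1%, 17.9 to 50.7), against 55.9% of all. Member promoters had a median GC content of 54.7%, against 62.7% for all promoters, and a median of 8.5 CpG dinucleotides, against 22; the part of base composition in these shares was not tested. A motif match is a match of letters and not evidence of binding.

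Gene ends of the interferon response genes were called alike in the 3 lists, as were most gene-end sites of all genes. A region lay at a gene end in 31 of 37 members in hypoxia with shZHX2, in the same 31 in hypoxia with shCtrl and in the same 31 in normoxia (83.8%, interval 68.9 to 92.3). Over all protein-coding genes the shares were 70.0% with shZHX2, 72.3% in hypoxia with shCtrl and 74.2% in normoxia, which lie inside that interval. Of the 31, none was called in hypoxia and not in normoxia, against 0.656% of all genes with a gene-end region, and none in normoxia and not in hypoxia, against 3.16%. None was called with shZHX2 and not with shCtrl, against 0.670% of all genes, and none with shCtrl and not with shZHX2, against 3.76%. The upper bound on each count of 0 of 31 was 11.0%, above each of these shares of all genes. These counts therefore do not set the members apart from other genes. The 35 gene-end regions assigned to members were 35 sites called in all 3 lists, against 88.4% of the 15123 gene-end sites of all genes (interval for the members 90.1 to 100). Gene-end regions made up a larger part of the members' regions than of all assigned regions: 46.7% (35.8 to 57.8) against 29.5% with shZHX2, 39.8% (30.2 to 50.2) against 26.1% in hypoxia with shCtrl, and 36.5% (27.5 to 46.4) against 23.7% in normoxia.

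**Figure D1:**
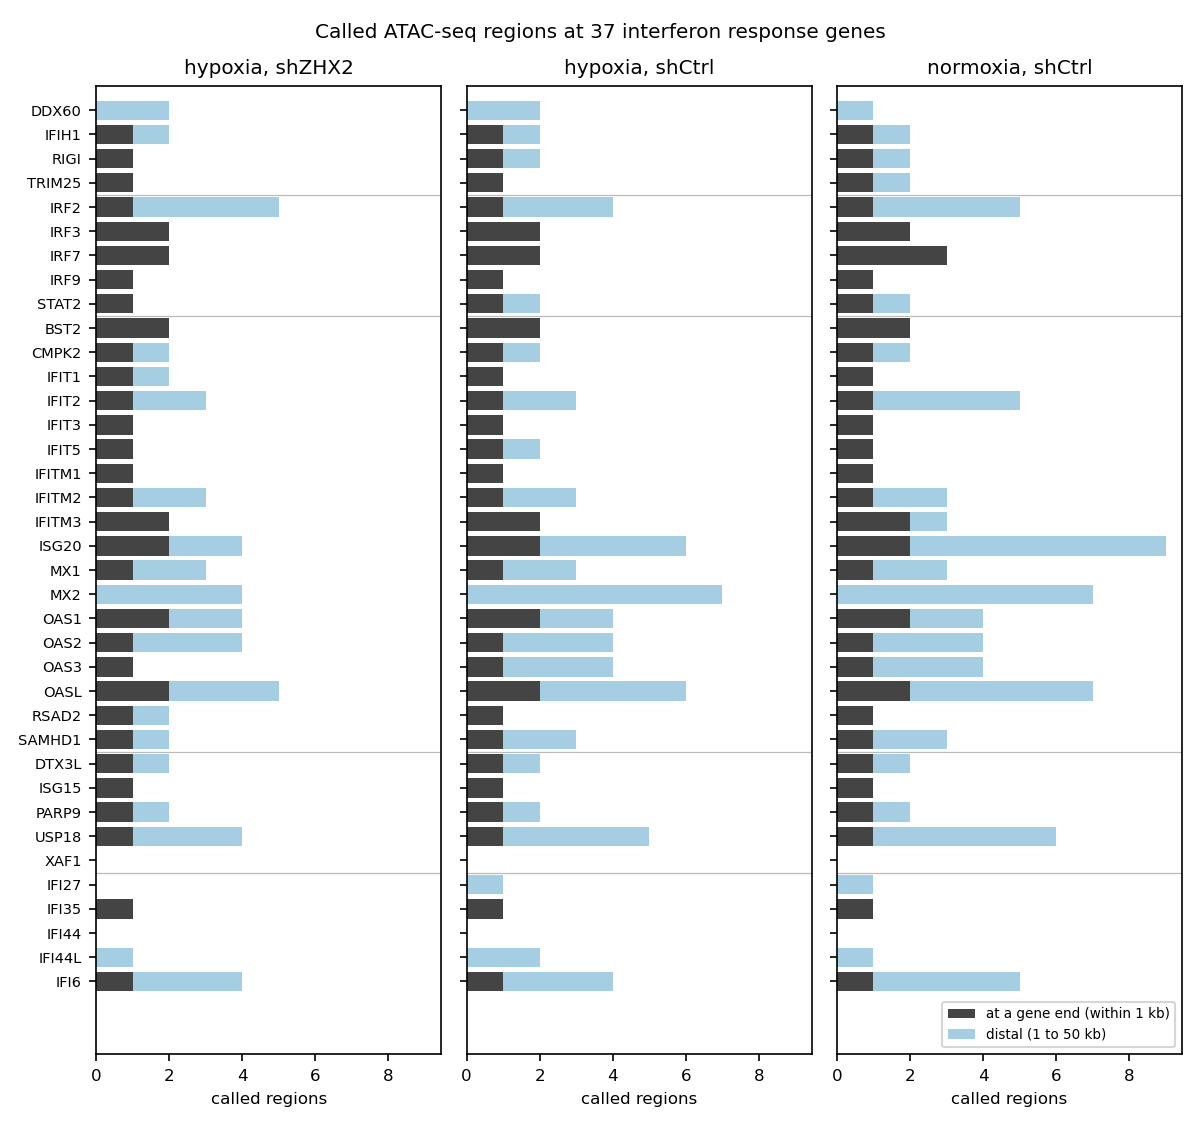
Number of called regions per member (x axis) in each list, with gene-end regions dark and distal regions light; horizontal lines separate sensors, transcription factors, effectors, the ISG15 group and other induced genes. The dark bars show the same 31 members in every panel, and the light bars sum to 40 regions with shZHX2, 53 in hypoxia with shCtrl and 61 in normoxia. Dark bars count every region within 1 kb of an end of the member, also where the end of another gene is nearer or as near.

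Some of these gene-end regions cannot be credited to a member alone. Of the regions that touched 1 kb around a member's end, 10 of 36 with shZHX2, 10 of 36 in hypoxia with shCtrl and 11 of 37 in normoxia also touched another gene's end. CMPK2 and RSAD2 shared 1 region, as did PARP9 and DTX3L, and the ends of IFIT5, STAT2, IRF9, IRF3, BST2, IFIH1 and IRF7, among others, had a non-member neighbour. The strand was known for 28 members, and 23 of them had a region within 1 kb of the start of the gene's span in each list, while 6 had one at the far end as well. None had one only at the far end.

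The authors' fold enrichment over local background placed these regions near the middle of each list. The strongest gene-end region of a member stood at a median percentile of 49.6 among all gene-end regions of the shZHX2 list, 46.8 in hypoxia with shCtrl and 53.2 in normoxia. Gene-end regions of members were narrower, with median widths of 815 bp with shZHX2, 887 bp in hypoxia with shCtrl and 951 bp in normoxia; the medians of all genes were 1055 bp, 1042 bp and 1095 bp in those lists. Their median −log10 q was 75.5 with shZHX2 against 187 for all genes, 91.2 in hypoxia with shCtrl against 188, and 113 in normoxia against 198. Ranks from lists of different length show no change, so these folds are used only within a list.

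**Figure D2:**
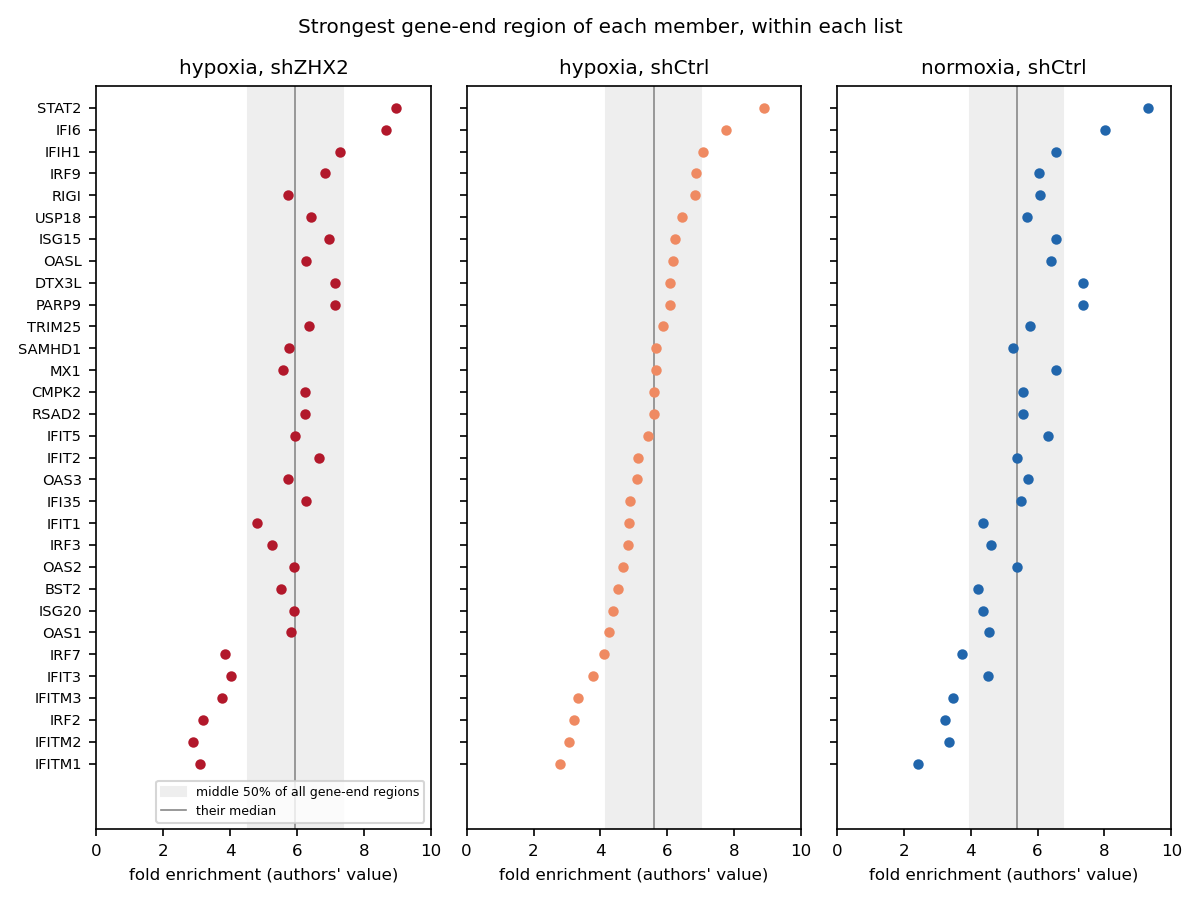
Authors' fold enrichment of the strongest gene-end region that is nearest to each of 31 members (x axis) in each list, ordered by the hypoxia shCtrl list; the grey band and line give the middle 50% and the median of all gene-end regions of that list. STAT2 and IFI6 lie right of the band in every panel, and IFITM1, IFITM2, IFITM3, IRF2 and IRF7 lie left of it.

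Among the sensors and their partners, 3 of 4 had a gene-end region in each list. RIGI and IFIH1 encode helicases that detect viral RNA in the cytosol, and TRIM25 is a ubiquitin ligase that promotes RIG-I signalling. IFIH1 had a gene-end fold of 7.28 with shZHX2, 7.08 in hypoxia with shCtrl and 6.55 in normoxia. RIGI had 5.72 with shZHX2, 6.82 in hypoxia with shCtrl and 6.06 in normoxia, and TRIM25 had 6.36 with shZHX2, 5.88 in hypoxia with shCtrl and 5.77 in normoxia. All 3 genes were called in every list.

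DDX60, a helicase induced by interferon, was the sensor gene without a gene-end region, although its promoter was open in all 3 lists. The gene span in the gene table begins 7227 bp upstream of the start in the promoter table, so the region over that start counted as distal. It had a fold of 10.2 with shZHX2, 8.24 in hypoxia with shCtrl and 10.1 in normoxia. In hypoxia with shCtrl it reached from 168318239 to 168318972 on chromosome 4, over both ISRE matches in the DDX60 sequence above. ISG20, an exonuclease that degrades viral RNA, showed the same kind of offset. Its promoter-table start lay 3384 bp inside the span and under a region called in every list, with folds of 6.22 with shZHX2, 5.91 in hypoxia with shCtrl and 5.53 in normoxia.

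All 5 transcription factor genes had a gene-end region in each list, and their folds ran from the highest of all members to among the lowest. STAT2, the STAT subunit of the interferon-activated complex, had 8.95 with shZHX2, 8.89 in hypoxia with shCtrl and 9.30 in normoxia. IRF9, its DNA-binding partner, had 6.83 with shZHX2, 6.85 in hypoxia with shCtrl and 6.05 in normoxia. IRF3 and IRF7 switch on the interferon genes themselves. IRF3 had 5.24 with shZHX2, 4.83 in hypoxia with shCtrl and 4.62 in normoxia, and IRF7 had 3.85 with shZHX2, 4.11 in hypoxia with shCtrl and 3.74 in normoxia. IRF2, which competes with activating factors at the ISRE, had 3.20 with shZHX2, 3.22 in hypoxia with shCtrl and 3.22 in normoxia. Its region was wide, with 2979 bp with shZHX2, 2775 bp in hypoxia with shCtrl and 2715 bp in normoxia.

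Of 18 antiviral effector genes, 17 had a gene-end region in each list, all but MX2. The MX2 gene had a region just past the 1 kb limit in every list, which counted as distal. It lay 1462 bp from the gene with shZHX2, 1401 bp in hypoxia with shCtrl and 1226 bp in normoxia. OASL, a relative of the oligoadenylate synthetases, had a gene-end fold of 6.29 with shZHX2, 6.17 in hypoxia with shCtrl and 6.42 in normoxia. At OAS1, OAS2 and OAS3, enzymes whose product activates RNase L, the folds of the strongest gene-end region lay between 4.26 and 5.92 over all lists. A weaker gene-end region of OAS1 had 3.85 with shZHX2, 2.83 in hypoxia with shCtrl and 3.38 in normoxia. IFIT genes encode proteins that bind foreign RNA. IFIT5 had 5.95 with shZHX2, 5.41 in hypoxia with shCtrl and 6.30 in normoxia, and IFIT2 had 6.66 with shZHX2, 5.12 in hypoxia with shCtrl and 5.39 in normoxia. IFIT1 had 4.82 with shZHX2, 4.85 in hypoxia with shCtrl and 4.37 in normoxia. IFIT3 had 4.03 with shZHX2, 3.79 in hypoxia with shCtrl and 4.51 in normoxia, the lowest of the family in the shZHX2 and hypoxia shCtrl lists.

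Gene-end folds were low at the IFITM genes, whose products stop viruses from entering cells, and IFITM1 or IFITM2 was the lowest of all members in each list. IFITM1 had 3.11 with shZHX2, 2.78 in hypoxia with shCtrl and 2.43 in normoxia, and IFITM2 had 2.88 with shZHX2, 3.06 in hypoxia with shCtrl and 3.36 in normoxia. IFITM3 had 2 gene-end regions in each list. The one nearer its start had 3.76 with shZHX2, 3.07 in hypoxia with shCtrl and 3.48 in normoxia. The other had 3.46 with shZHX2, 3.34 in hypoxia with shCtrl and 3.02 in normoxia. The 3 genes lie side by side on chromosome 11 and are close in sequence, so their values are uncertain where reads could be placed on either copy. MX1, a dynamin-like GTPase that traps viral particles, had 5.58 with shZHX2, 5.66 in hypoxia with shCtrl and 6.54 in normoxia. RSAD2, which makes a nucleotide that ends viral RNA chains, and CMPK2, a mitochondrial nucleotide kinase, shared 1 region with a fold of 6.25 with shZHX2, 5.60 in hypoxia with shCtrl and 5.56 in normoxia. SAMHD1, which depletes nucleotides, had 5.75 with shZHX2, 5.67 in hypoxia with shCtrl and 5.26 in normoxia. BST2, which tethers virus particles to the cell, had 5.51 with shZHX2, 4.53 in hypoxia with shCtrl and 4.21 in normoxia.

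In the ISG15 group, 4 of 5 genes had a gene-end region in each list. ISG15, a ubiquitin-like modifier, had 6.95 with shZHX2, 6.23 in hypoxia with shCtrl and 6.56 in normoxia, and USP18, which removes ISG15 from proteins and damps receptor signalling, had 6.43 with shZHX2, 6.45 in hypoxia with shCtrl and 5.67 in normoxia. PARP9 and the ubiquitin ligase DTX3L, which act as a pair, shared a region with a fold of 7.14 with shZHX2, 6.09 in hypoxia with shCtrl and 7.35 in normoxia. XAF1, a proapoptotic antagonist of XIAP, had no assigned region in any list. Of the other induced genes, IFI6, a mitochondrial antiapoptotic protein, had 8.67 with shZHX2, 7.76 in hypoxia with shCtrl and 8.03 in normoxia. IFI35 had 6.26 with shZHX2, 4.87 in hypoxia with shCtrl and 5.50 in normoxia. IFI44 had no assigned region in any list, and IFI27 had none at a gene end. The start of IFI27 in the promoter table lay 4842 bp inside the gene span, and no region touched the promoter there in any list.

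Members held 40 distal regions with shZHX2, 53 in hypoxia with shCtrl and 61 in normoxia. All distal regions numbered 32145 with shZHX2, 40316 in hypoxia with shCtrl and 47801 in normoxia, the same order as for the members. When only the best-scored regions were kept, as many per list as the shortest list holds, the members had 40 with shZHX2, 40 in hypoxia with shCtrl and 35 in normoxia. The matching counts of all distal regions are not given here. Merging the lists gave 68 distal sites, of which 33 (48.5%, 37.1 to 60.2) were called in all 3, against 56.3% of the 51359 distal sites of all genes. Another 16 (23.5%, 15.0 to 34.9) were called in both shCtrl lists and not with shZHX2, against 16.3%, and 9 (13.2%, 7.12 to 23.3) in normoxia only, against 17.8%. Hypoxia with shCtrl alone had 3 (4.41%, 1.51 to 12.2), against 4.30%, and shZHX2 alone had 3 (4.41%, 1.51 to 12.2), against 2.04%. Hypoxia with shZHX2 shared 3 with normoxia only (4.41%, 1.51 to 12.2), against 2.40%. It shared 1 with hypoxia shCtrl only (1.47%, 0.260 to 7.87), against 0.855%. Each of these intervals holds the share of all genes. Of the 68 sites, 31 lay inside the span of their gene (45.6%, 34.3 to 57.3), against 47.1% of all distal sites.

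In normoxia MX2, ISG20, USP18 and OASL had the most distal regions. MX2 had 4 with shZHX2, 7 in hypoxia with shCtrl and 7 in normoxia, and ISG20 had 2 with shZHX2, 4 in hypoxia with shCtrl and 7 in normoxia. USP18 and OASL each had 3 with shZHX2, 4 in hypoxia with shCtrl and 5 in normoxia. IRF2, with 4 in the shZHX2 list, 3 in hypoxia with shCtrl and 4 in normoxia, had as many as MX2 with shZHX2. The strongest distal region of any member in the hypoxia shCtrl list lay 41255 bp from IFIT2, at 89260310 to 89260791 on chromosome 10. Its fold was 12.9 with shZHX2, 11.0 in hypoxia with shCtrl and 10.2 in normoxia. The 3 distal regions of OAS2 and both of OAS1 were also called in every list, and so were both of MX1.

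The first comparison, of hypoxia with normoxia under shCtrl, asks which sites differ when oxygen is low. At gene ends, 0 of 35 member regions were called in hypoxia and not in normoxia (upper bound 9.89%), against 1.26% of all gene-end regions. The other way the count was 0 of 35, against 5.17%. From the rates of their score deciles, 0.314 and 0.672 regions would be expected. Among distal regions, 4 of 53 in hypoxia were not called in normoxia (7.55%, 2.97 to 17.9), against 6.57% of all distal regions, and 3.85 would be expected from the rates of their score deciles. In the other direction, 12 of 61 regions of the normoxia list had no call in hypoxia (19.7%, 11.6 to 31.3), against 21.7%, with 15.6 expected. The shares of the members therefore stood near the background in both directions. With all lists cut to the length of the shortest by score, the counts were 6 called in hypoxia only and 1 in normoxia only. The shares of all distal regions under that cut are not given here, so this reversal cannot be read as particular to the members.

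The 4 regions called in hypoxia and not in normoxia were at IFIT5, IFI44L, USP18 and DDX60. The one at IFIT5 lay 1998 bp from the gene, had a fold of 3.26 and a −log10 q of 50.3, and was not called with shZHX2. Those of IFI44L, 12191 bp from the gene, and USP18, 8879 bp from it, had folds of 2.68 and 3.41 and were not called with shZHX2 either. The DDX60 region, 20775 bp from the nearer end in the shCtrl list and inside the gene span, was the only one of the members called in both hypoxia lists and not in normoxia. Its fold was 3.40 with shZHX2 and 3.30 with shCtrl.

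The 12 regions called in normoxia and not in hypoxia with shCtrl lay at 8 members: ISG20 with 3, IFIT2 and USP18 with 2 each, and IFI6, IFITM3, IRF2, OASL and TRIM25 with 1 each. Their folds were 2.65 to 3.51, and all 12 lay in the lowest 3 score deciles of the normoxia list. One each at IFIT2, USP18 and IRF2 was called again with shZHX2.

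The second comparison, of shZHX2 with shCtrl under hypoxia, asks which sites differ when ZHX2 is targeted. At gene ends, 0 of 35 member regions were called with shZHX2 and not with shCtrl, against 1.08% of all gene-end regions. The other way the count was 0 of 35, against 6.17%. The upper bound on both was 9.89%, and 0.351 and 2.26 regions would be expected from score. Among distal regions, 6 of 40 were called with shZHX2 and not with shCtrl (15.0%, 7.06 to 29.1), against 7.25% of all distal regions, with 2.84 expected from score. In the other direction, 19 of 53 regions in hypoxia with shCtrl were not called with shZHX2 (35.8%, 24.3 to 49.3), against 26.6%, with 14.8 expected. Both intervals hold the background share. With lists of equal length the counts were 8 and 8, and the shares of all distal regions under that cut are not given here.

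**Figure D3:**
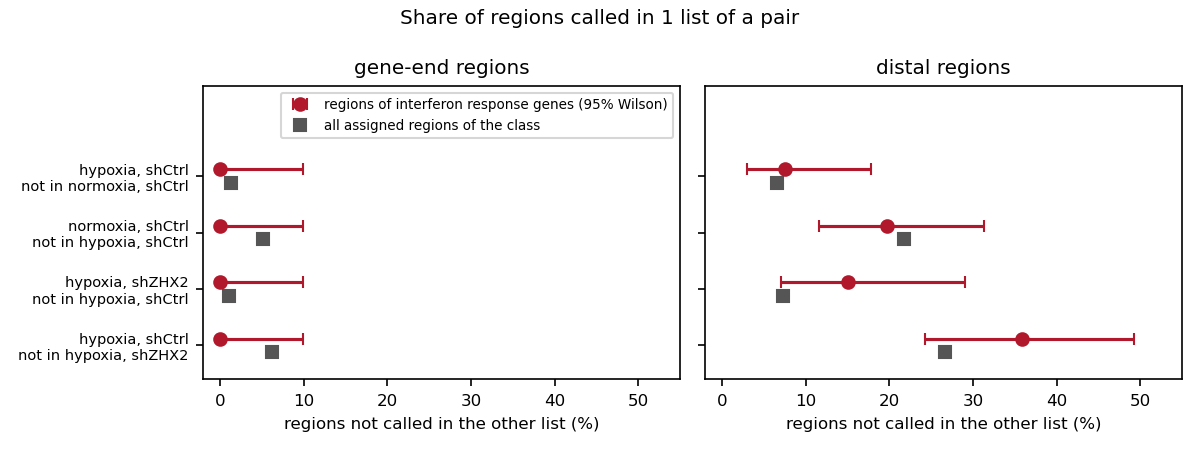
Percent of regions called in 1 list and not in the other (x axis) for the regions of interferon response genes (circles, 95% Wilson interval) and all assigned regions of the class (squares), at gene ends on the left and distal on the right. Every member share at gene ends is 0, and each interval on the right holds its square.

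The 19 regions not called with shZHX2 fell at 13 members, and at OAS3 and MX2 there were 3 neighbouring sites each. OAS3 had 3 distal regions in hypoxia with shCtrl, all inside the gene, with folds of 2.82, 3.17 and 3.66, and none with shZHX2. All 3 had been called in normoxia, with folds of 3.04, 3.05 and 3.85. MX2 had 3 within its span at 7447, 11936 and 16875 bp from its nearer end, with folds of 2.73, 3.01 and 3.96 in hypoxia with shCtrl and 3.65, 3.27 and 3.39 in normoxia. The 4 remaining MX2 regions were called in every list. One of them, 12061 bp from its nearer end in hypoxia with shCtrl, had a fold of 8.71 with shZHX2, 7.28 with shCtrl and 8.21 in normoxia.

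**Figure D4:**
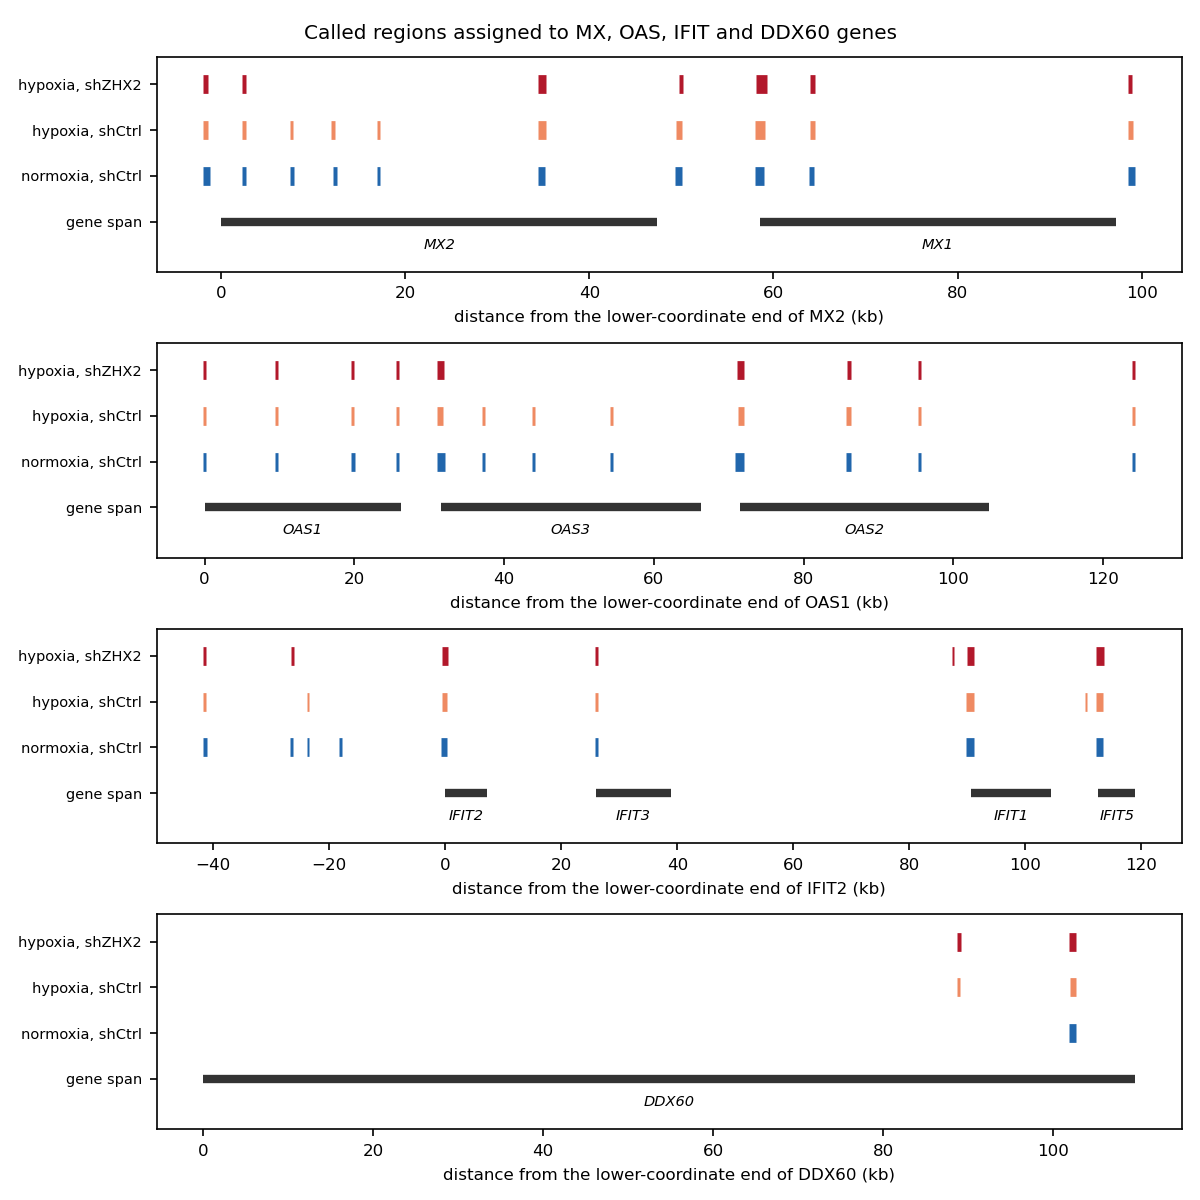
Called regions in the 3 lists (coloured blocks, hypoxia shZHX2 on top) and gene spans (black) along the MX, OAS, IFIT and DDX60 loci; the x axis is the distance in kb from the lower-coordinate end of the first gene. In the upper row 3 regions are missing inside MX2 and 3 inside OAS3, while gene-end blocks line up in every row.

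Of the remaining 13, ISG20 and USP18 had 2 each, and STAT2, IFIT2, IFIT5, OASL, IFI27, IFI44L, SAMHD1, IRF2 and RIGI had 1 each. The ISG20 regions lay 45081 and 48942 bp from the gene. The STAT2 region, inside the gene and 5050 bp from its nearer end, had a fold of 4.67 in hypoxia with shCtrl, the highest of the 19, and 3.29 in normoxia. The IFI27 region was the only one assigned to that gene, so IFI27 had none with shZHX2, 1 in hypoxia with shCtrl (fold 2.78) and 1 in normoxia (fold 2.88). It was weak in both lists, with a −log10 q of 10.7 in hypoxia with shCtrl and 13.2 in normoxia. These lay in score deciles 1 and 2 of their lists. The RIGI region, 23343 bp from its nearer end, had 3.35 in hypoxia with shCtrl and 4.24 in normoxia.

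The 6 regions called with shZHX2 and not with shCtrl lay at IRF2 with 2 and at IFIT1, IFIT2, RSAD2 and USP18 with 1 each. Their folds were 2.98 to 3.58. The IFIT1 region lay 3032 bp from the gene and the RSAD2 region 14418 bp from the nearer end of that gene; neither was called in normoxia, nor was the IRF2 region inside that gene, 11504 bp from its nearer end. Those of IFIT2 and USP18, and the IRF2 region 3231 bp from the gene, were called in normoxia.

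Distal regions called in 1 list of a pair were weaker in their own list than those called in both. In hypoxia with shCtrl, distal member regions not called with shZHX2 had a median −log10 q of 15.2 in their own list, against 79.3 for those called in both and 91.2 for gene-end regions. In the shZHX2 list those not called with shCtrl had 13.9, against 75.5 for gene-end regions. For regions of hypoxia not called in normoxia the median was 17.5, against 36.3 for those called in both. For regions of normoxia not called in hypoxia it was 13.0, against 37.7 for those called in both. Of the 19 not called with shZHX2, 18 lay in the lower 5 score deciles of their list. Restricted to regions with a −log10 q of at least 20, with the other list whole, 5 of the 19 remained, 0 of the 6 and, between hypoxia and normoxia, 1 of the 4 and 0 of the 12. The matching medians and counts over all distal regions are not given here, so these values do not set the members apart from other genes. The shZHX2 list was the shortest and normoxia the longest, and the part of read depth in these counts was not tested.

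**Figure D5:**
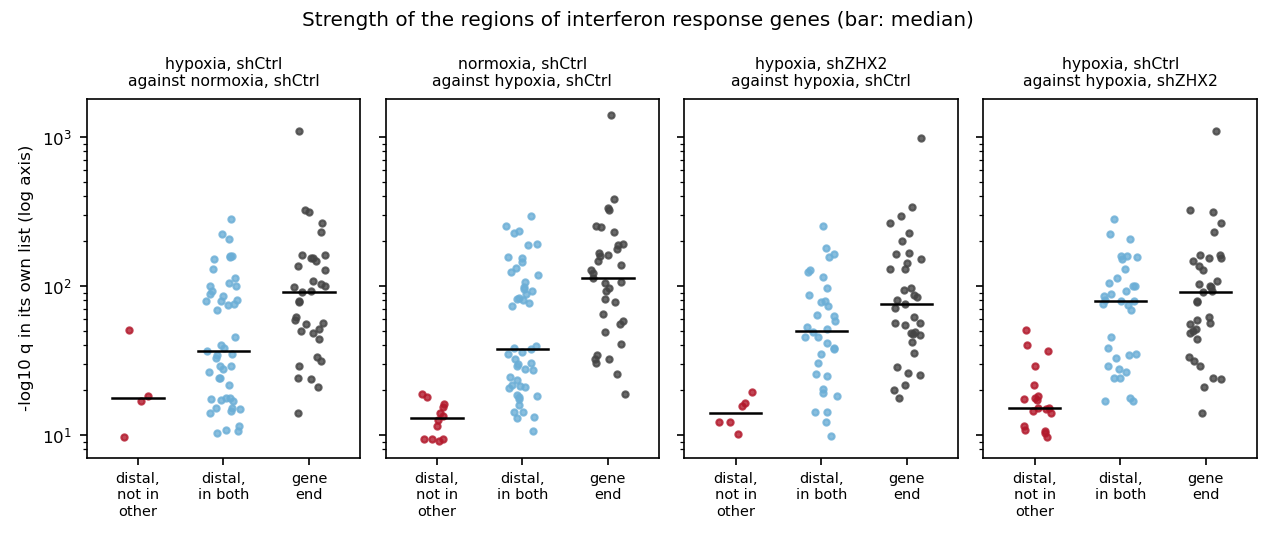
−log10 q in its own list (log axis) of each member region, for distal regions not called in the other list, distal regions called in both and gene-end regions, in the 4 comparisons; the bar is the median. In every panel the median of the first column lies below the other medians.

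Other genes of interferon signalling and response, outside the 37 members, were read at their gene ends in the same way. All 9 receptor and Janus kinase genes, among them IFNAR1, IFNAR2 and TYK2, had a gene-end region in each list, as did 4 of 4 feedback genes such as SOCS1 and 8 of 8 antigen presentation genes such as B2M. Of 10 nucleic acid sensing genes, 8 had one in each list, all but CGAS and ZBP1. Of 5 interferon genes, 0 had one with shZHX2, 1 in hypoxia with shCtrl and 2 in normoxia, the same order as list length. Of all genes with a gene-end region in normoxia, 3.16% had none in hypoxia with shCtrl. Of those with one in hypoxia with shCtrl, 3.76% had none with shZHX2. IFNL1, a type III interferon gene active in epithelia, had folds of 3.10 in hypoxia with shCtrl and 4.48 in normoxia and no call with shZHX2. IFNB1, the main type I interferon gene of epithelial cells, was called in normoxia only, with a fold of 2.92 and a −log10 q of 11.6. Both were singled out after their calls were seen. Over all 36 such genes, 29 had a gene-end region with shZHX2, 30 in hypoxia with shCtrl and 31 in normoxia. The shares over all protein-coding genes were 70.0% with shZHX2, 72.3% in hypoxia with shCtrl and 74.2% in normoxia.

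Markers were read the same way to check the cell line. For comparison, a gene-end region was called at 70.0% of all protein-coding genes with shZHX2, 72.3% in hypoxia with shCtrl and 74.2% in normoxia. Of 10 luminal epithelial markers, 9 had a gene-end region in each list, including GATA3, FOXA1 and KRT8; ESR1 did not, and a promoter inside its span would not count. Of 10 blood markers, 6 had one with shZHX2, 6 in hypoxia with shCtrl and 7 in normoxia, with MS4A1 in none. Of 8 markers of stroma and endothelium, 2 had one with shZHX2, 3 in hypoxia with shCtrl and 3 in normoxia. Their part in the interferon gene calls was not tested. An accessible gene end does not show that a gene is transcribed.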

How the data were processed

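The authors deposited 3 lists of ATAC-seq regions, 1 per group, in a broad-peak layout of 9 columns without a header. Per the submitters' processing notes the tools included FastQC, Bowtie2, SAMtools and MACS2, with build hg38; their versions and settings, and the way replicates were combined, are not given in the sources used here. Of the values the authors deposited for a region, its score, its fold enrichment ratio and its −log10 q were used. The score ranked regions into deciles and cut lists to equal length.

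Mitochondrial regions were left out. Gene spans came from a RefSeq table of GRCh38.p14, promoters from RefSeq. A region went to the nearest protein-coding gene start or end within 50 kb, measured from its nearest edge, and ties went to every tied gene. The expected number, added after seeing the data, gave each region the rate of its score decile among regions of its class, gene-end or distal, in that list. Shares carry Wilson 95% intervals. Assignment and overlap were tested on simulated regions. Analyses used Python 3.11.15, pandas 2.3.3 and SciPy 1.17.1.

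The members and lists were chosen with earlier results of these data known. Genes were named where a gene end was missing or a region differed between lists, for the highest and lowest gene-end folds, and for the most distal regions; other members were added for completeness. Alternatives were a −log10 q of at least 20, lists of equal length, a 2 kb window, distance from the middle of a region, assignment within 20 kb and 50% overlap.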

Additional observations from a re-analysis of the deposited data

How the results depend on the processing

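No paired analysis was possible because each group has 1 list and no file used here holds values per sample; for the same reason no replicate could be left out. The count of members with a gene-end region stayed between 30 and 32 in each list under the 4 alternatives that bear on it. Distances from the middle of a region, assignment within 20 kb and 50% overlap left each count they bear on within 1.5 times its value. With a 2 kb gene-end window, 1 gene-end region was called in hypoxia with shCtrl and not in normoxia, and 1 not with shZHX2; both are the IFIT5 region at 1998 bp. With lists of equal length by score, normoxia had 35 distal member regions and 1 of them was not called in hypoxia; 8 of hypoxia shCtrl were not called with shZHX2. At gene ends 1 region was then called in hypoxia and not in normoxia, 1 in normoxia and not in hypoxia, and 1 with shZHX2 and not with shCtrl. With a −log10 q of at least 20 in both lists, normoxia had 39 distal regions, 6 had no call in hypoxia, 0 were called with shZHX2 and not with shCtrl, and 8 with shCtrl and not with shZHX2. At gene ends 1 was then called in hypoxia and not in normoxia, 1 in normoxia and not in hypoxia, and 1 in hypoxia shCtrl and not with shZHX2. With that limit on the first list alone, chosen after seeing the data, the distal counts were 1 for hypoxia and not normoxia, 0 for normoxia and not hypoxia, 0 for shZHX2 and not shCtrl, and 5 for shCtrl and not shZHX2. Fewer weak regions enter under both limits by construction. Other causes were not tested. Shares of all regions under these limits or with lists of equal length are not given here. Read depth is not known for any list.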

Other observations

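A region within 1 kb of the lower-coordinate end of IRF7, at 612268 to 612501 on chromosome 11, was called in normoxia only, with a fold of 2.11; its nearest gene end is that of PHRF1, so it was not assigned to IRF7. It is among the 37 normoxia regions touching a member's end and the 11 of them that also touch another gene's end. The nearest sites beyond the 50 kb limit lay 57278 and 59406 bp from USP18 and were called in hypoxia with shCtrl and in normoxia. For IFI44, which had no assigned region, the nearest site for which it was the closest gene lay 64101 bp away and was called in all 3 lists.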
